A study of Drosophila melanogaster with 10 samples.

Results

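Transcripts of 5 genes that act when the fly blastoderm forms its cells, nullo, Sry-alpha, bnk, halo and slam, were followed across 10 arrays of whole Drosophila melanogaster embryos. They were chosen by symbol in the platform annotation, which assigned 1 probe set to each, 5 of 13966 probe sets in all. Every array held total RNA from about 1 gram of embryos, gathered over 0 to 2.5 h of egg laying, aged for 2.5 h, treated and left to recover for 1.5 h. By this schedule embryos were 2.5 to 5.0 h old at treatment and 4.0 to 6.5 h old at harvest, and each collection mixed these ages. The 6 groups were yw control and irradiated embryos (1 array each), w1118 control and irradiated embryos (2 arrays each) and Dmp53NS control and irradiated embryos (2 arrays each). Irradiated embryos received 40 Gy of gamma rays and controls a mock treatment. The yw and w1118 strains were labelled wild type (WT), and Dmp53NS is a strain mutant for Dmp53, the fly p53 gene. A strain is thus 1 line, and its difference from another holds all of its genetic background as well as any p53 genotype. A control and an irradiated collection of the same strain and replicate number formed a set, so there were 5 sets. The series calls the sets biological replicates and names no parents or cultures, so p-values measure the spread between these collections.

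The early fly embryo divides its nuclei without dividing its cytoplasm, and in the third hour of development membrane furrows grow inward between the nuclei and enclose each in a cell. Most of the machinery is laid down by the mother, and a handful of genes that the embryo itself switches on just before, in a short burst, are needed for the furrows to form and grow at the right pace. Their transcripts are short-lived and are widely used to recognise embryos at this step. Among the 5, slam starts the polarised membrane growth of the furrows. Both nullo and Sry-alpha keep actin organised along the furrows, and bnk holds the actomyosin network open until the cells close at their base. The product of halo steers lipid droplets along microtubules.

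Values are signal intensities in arbitrary units, and those of different probe sets are not comparable. The yw set was hybridized on day 1, and days 2 and 3 each held 1 w1118 and 1 Dmp53NS set. Strain yw therefore cannot be told apart from day 1, while w1118 and Dmp53NS were matched by day. Median signal per array was 63.3 to 107.8, and signals under 20 made up 16.0% and 16.8% of the yw arrays against 23.96% to 29.99% of the other 8. RNA integrity was gauged by control probe sets for eIF-4a: the 3′ end outshone the 5′ end by a ratio of 12.2 on the second irradiated w1118 array and 5.92 on the second control Dmp53NS array, against 1.56 to 3.13 on the other 8. By the actin controls the same 2 arrays were highest, at 4.88 and 3.52. By GAPDH they read 2.27 and 1.96, and the first irradiated Dmp53NS array was highest at 3.20. The 2 arrays left out below were chosen by eIF-4a. The p53 transcript itself read 104 to 213 on the 4 Dmp53NS arrays and 233 to 505 on the 6 WT arrays. It differed by -0.94 log2 against w1118 and did not pass (limma adjusted p = 0.130). How many of all probe sets separate these arrays in the same way was not counted. Of embryonic markers, 7 of 7 gastrulation genes passed the filter on dim probe sets. Of 20 genes of the extended germ band, 13 had a probe set and 11 passed. The filter kept 8379 of all 13966 probe sets, so passing it does not by itself show that a transcript was present. Of 12 markers of adult ovary and fat body, 11 had a probe set and 6 passed that filter. Limma called 0 of these 6 for Dmp53NS against w1118 (median -0.29 log2, 1 with an unadjusted p under 0.05, against 23.3% of all probe sets). For yw against w1118 it called 0 (median 0.75 log2, 3 with an unadjusted p under 0.05, against 26.2%). The chorion genes Cp36 and Cp18 were lower in Dmp53NS than in yw by 1.36 and 1.17 log2 (adjusted p = 0.0337 and 0.0222). These were 2 of the 6, in a comparison where 21.0% of all probe sets passed.

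Of the 5 genes, 3 gave a signal above the limit used for testing, a mean of 53.4 over the arrays, and 2 did not. The probe set of bnk (143455_at) read 10 and 16.6 in yw (control, then irradiated), 0.6 and 1.6 in the first and 8.0 and 11.6 in the second w1118 set, and 3.0 and 1.2 and 6.0 and 11.3 in the Dmp53NS sets. On 9 of 10 arrays it lay among the lowest 20% of all probe sets. Its 4 values on day 2 were its lowest, at 0.6 to 3.0. How many of all probe sets split by day in this way was not counted. The X-linked gene nullo (143429_at) read 48.4 and 43.4 in yw, 98.6 and 68.1 and 23.3 and 81.4 in the w1118 sets, and 61.5 and 17.6 and 23.5 and 14.6 in the Dmp53NS sets. Its highest array was an unirradiated w1118 collection and its lowest an irradiated mutant one, 6.75 times apart, and the ranges of w1118 and Dmp53NS overlapped.

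The other 3 were well above that limit on all 10 arrays. Sry-alpha (143367_at) was the steadiest of the 3, with 351 and 286 in yw, 312 and 305 and 314 and 218 in w1118, and 259 and 304 and 200 and 145 in Dmp53NS. Its log2 values had an SD of 0.37 over the 10 arrays, smaller than that of all but 17.6% of the probe sets tested, whose median was 0.54. The SDs of halo and slam were 0.51 and 0.69. The values of halo (145586_at) were 256 and 611 in yw, 202 and 345 and 212 and 390 in w1118, and 220 and 248 and 335 and 183 in Dmp53NS. Those of slam (145894_at) were 539 and 499.5 in yw, 287 and 274 and 262 and 202 in w1118, and 852 and 602 and 479 and 768 in Dmp53NS. The plot of signal by array shows that the w1118 arrays of slam lie below those of both other strains, which overlap, and that halo separates by irradiation within the WT sets, while for Sry-alpha the strains overlap and the irradiated WT arrays lie below the control ones by little.

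**Figure D1:**
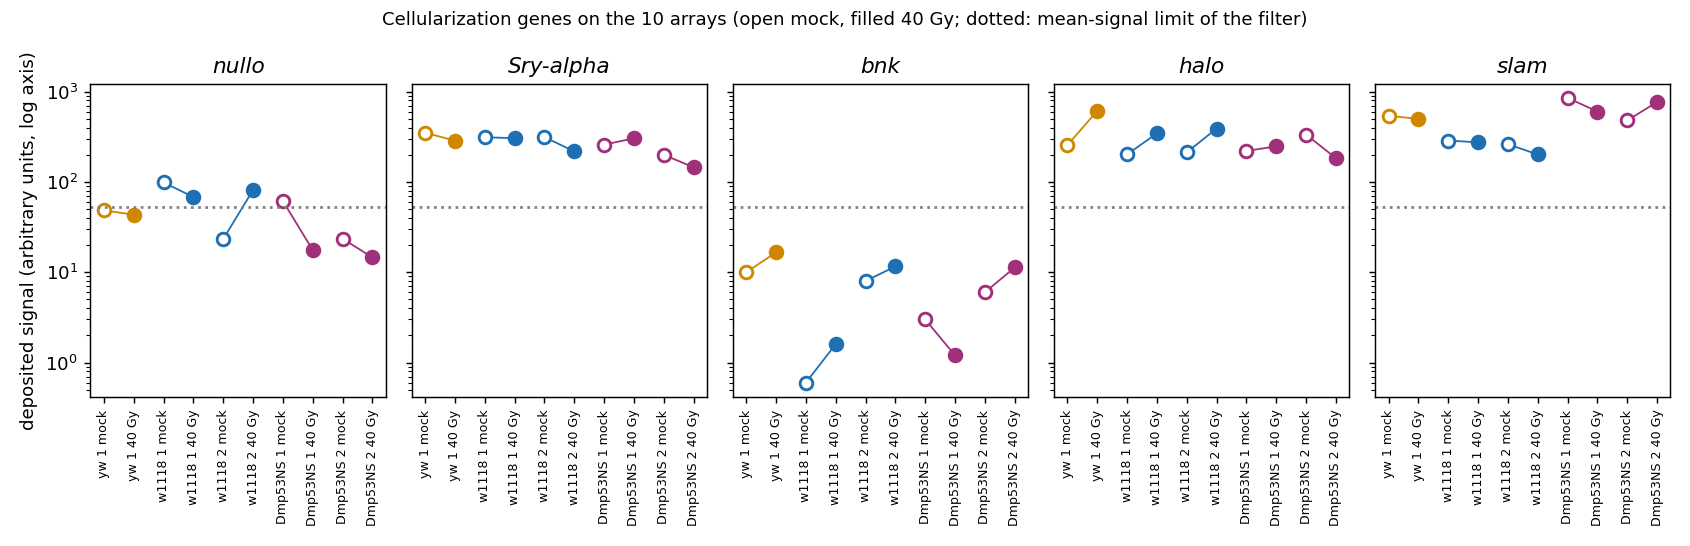
Deposited signal (arbitrary units, log axis) of each of the 5 genes on the 10 arrays, in order of strain and replicate; open points are mock-treated and filled points irradiated collections, lines join a set, and the dotted line is the mean-signal limit of 53.4. The 4 Dmp53NS points of slam (479 to 852) lie above all 4 w1118 points (202 to 287), and the irradiated WT points of halo (345 to 611) above the control ones (202 to 256).

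The comparison of Dmp53NS with w1118, the day-matched WT strain, asked whether the 5 genes differ with genotype. Transcripts of slam were 2.51-fold higher in Dmp53NS, at a mean signal of 675 ± 167 against 256 ± 37.9 (SD over 4 arrays of 2 sets each). In whole embryos a larger share of embryos or cells with a transcript and more of it per cell cannot be told apart. The difference was 1.33 log2 (SE 0.27, 95% interval 0.73 to 1.93, limma adjusted p = 0.0198), and all 4 mutant arrays lay above all 4 w1118 arrays. Matched by day and treatment, the mutant signal was 2.97 times that of w1118 in control and 2.20 times in irradiated embryos on day 2, and 1.83 and 3.81 times on day 3. The mean difference was 1.31 log2 on day 2 and 1.35 on day 3. With day as a block and these 8 arrays alone, counted as independent, the adjusted p was 1.62e-04. Of all probe sets tested, 5.93% passed in this comparison, 3.9% as higher in the mutant, 23.3% had an unadjusted p under 0.05, and in 10.1% all 4 mutant arrays exceeded all 4 w1118 arrays.

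The call of slam rested on all sets together. Its size stayed at 1.19 to 1.46 log2 without any 1 set, but the adjusted p became 0.0505 without the yw set, a part of the spread estimate. Leaving out the second w1118 set gave 0.0966, the first Dmp53NS set 0.0747 and the second Dmp53NS set 0.0679. Without the first w1118 set it was 0.0226. Without the 2 arrays of high 3′ to 5′ ratio, a choice made after the data were seen, the difference was 1.50 log2 (adjusted p = 0.0700), which was as large as with them.

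The remaining 4 genes gave no call between Dmp53NS and w1118. Sry-alpha differed by -0.35 log2 (95% interval -0.99 to 0.28, adjusted p = 0.509) and halo by -0.19 (-0.77 to 0.40, adjusted p = 0.730). Without the filter, nullo differed by -0.91 log2 (-1.83 to 0.00, adjusted p = 0.270) and bnk by 0.01 (-0.50 to 0.52, adjusted p = 0.993). For nullo the day means were -0.97 and -0.85 log2, but its control collections differed by only 0.01 on day 3. The median of all probe sets in this comparison was -0.12 log2.

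Strain yw read between both others for slam. Its mean signal of 519 was above all 4 w1118 arrays, by 0.99 log2 (95% interval 0.26 to 1.72, adjusted p = 0.0994), where 5.78% of all probe sets passed and 23.5% had both yw arrays above all w1118 arrays. It lay below the mutant mean by 0.34 log2 (Dmp53NS minus yw, -0.40 to 1.07, adjusted p = 0.479), where 21.0% passed, and within the range of the 4 mutant arrays. Neither step passed, whereas the step from w1118 to Dmp53NS did. Of the 3 genes tested, limma called 0 in each of these comparisons. At an unadjusted p under 0.05 the counts were 1 (slam) for yw against w1118, where 26.2% of all probe sets were, and 0 for Dmp53NS against yw, where 38.8% were. The differences of halo were 0.50 (yw minus w1118) and -0.69 log2 (Dmp53NS minus yw), and those of Sry-alpha 0.15 and -0.51. With quantile normalization the share of higher calls among all probe sets moved from 51.9% to 41.2% for yw against w1118 and from 48.5% to 58.7% for Dmp53NS against yw, and the median of all probe sets in the latter from -0.15 to 0.02 log2.

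**Figure D2:**
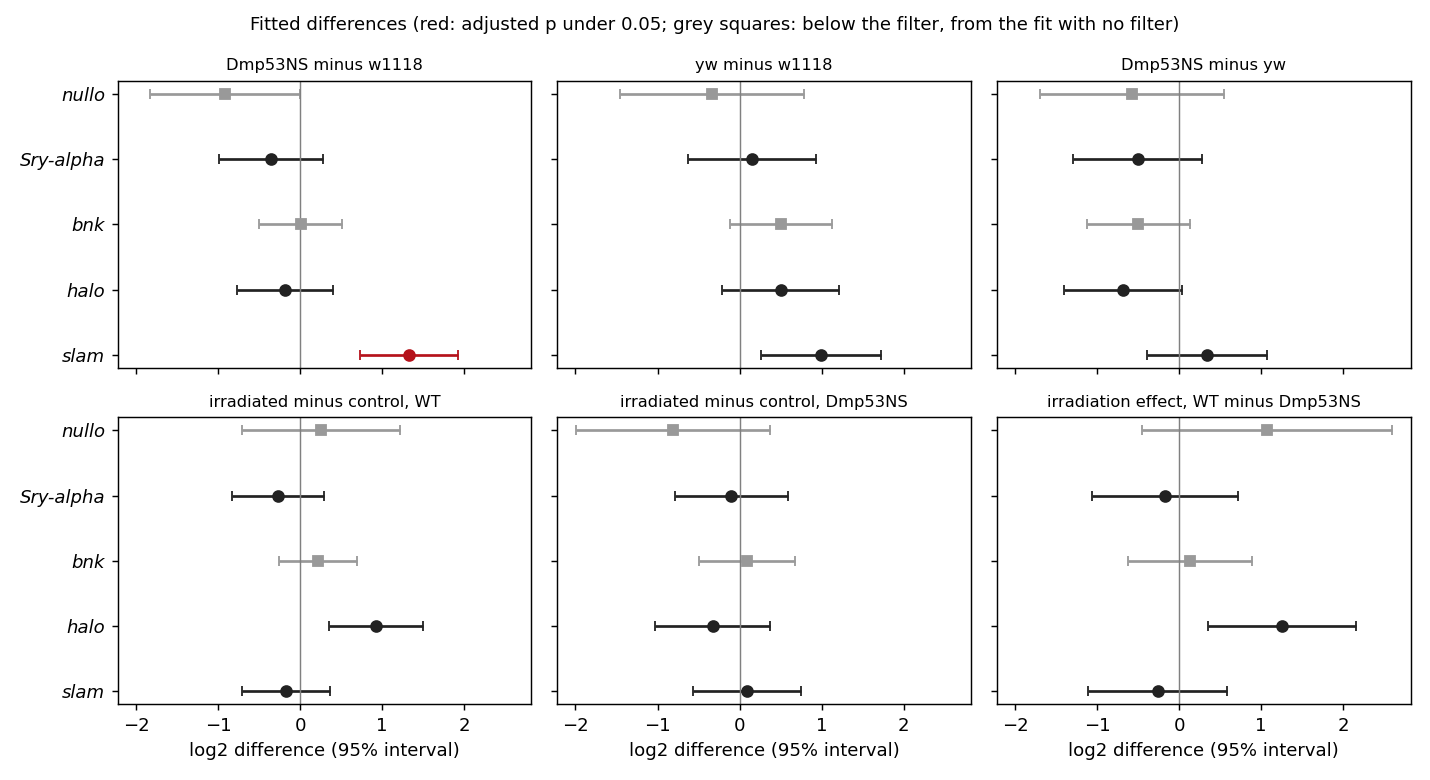
Fitted log2 differences with 95% intervals for the 5 genes in the 6 comparisons; red marks an adjusted p under 0.05, and grey squares are genes below the filter, taken from the fit with no filter. The interval of slam between Dmp53NS and w1118 (0.73 to 1.93) is the one in red, and that of halo in irradiated WT embryos (0.35 to 1.50) lies above 0 without passing after adjustment.

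Other genes tied to embryo stage were read beside slam in Dmp53NS against w1118. Of 13 measured maternal transcripts, which the mother loads into the egg and the embryo later clears, 6 were higher in the mutant and 0 lower by limma's test. Of the 13, 9 lay above 0 and 4 below, and 8 had an unadjusted p under 0.05, 7 of them higher. For all probe sets 3.9% were called higher here, and 23.3% had an unadjusted p under 0.05. The median of that list was 1.21 log2 against -0.12 for all probe sets. The anterior determinant gene bcd was higher by 2.90 log2 (SE 0.35, adjusted p = 0.00366), with signals of 105 to 187 in w1118 and 753 to 1641 in Dmp53NS. The gene smg, whose protein marks maternal transcripts for decay, was higher by 2.76 log2 (SE 0.62, adjusted p = 0.0283), and twe, a maternal Cdc25 phosphatase gene, by 2.69 (SE 0.43, adjusted p = 0.00730). The translational repressor gene pum (1.97 log2), the poly(A) polymerase gene wisp (1.65) and plu (1.35), which acts in the early nuclear cycles, also passed. Below 0 were gcl (-0.67, unadjusted p = 0.0175) and pgc (-0.41), both of which act in germ cell formation, gnu (-0.52), which acts in the early nuclear cycles, and ovo (-0.45). The part of these transcripts in the difference of slam was not tested.

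Genes that work at or near cellularization were read the same way. Of 30 genes of the maternal cellularization machinery (actin, septin, membrane traffic and junction genes) 16 had a probe set and were measured. Of these, 1 rose and 0 fell, with a median of -0.08 log2. In this comparison 5.93% of all probe sets passed, 3.9% as higher. The gene that rose was dah, a dystrophin-related furrow gene, with 465 to 622 in w1118 and 1788 to 2927 in Dmp53NS (1.97 log2, SE 0.26, adjusted p = 0.00368). Among 7 measured other genes of the early zygotic burst, limma called 0, and 1 was above 0, with a median of -0.43. At an unadjusted p under 0.05 was 1 of the 7, against 23.3% of all probe sets. In the gastrulation list of 7 genes T48, which encodes an apical membrane protein of invaginating cells, fell by 1.66 log2 (SE 0.40, adjusted p = 0.0350), and the median was -0.48. Of 11 measured genes of the later, extended germ band, 0 passed, and all 11 were below 0, with a median of -0.50. At an unadjusted p under 0.05 were 2 of the 11, again against 23.3%. Of 6 regulators of zygotic genome activation 1 rose, smg again, which is on both lists, and the median was 0.57. The plot of list members shows maternal transcripts on both sides of 0, with 9 of them above. On the separate list of cellularization genes, slam lay above 0 and Sry-alpha and halo below. The 8 list genes called here (bcd, smg, twe, pum, wisp, plu, dah and T48) kept their sign whenever arrays were left out, but not their calls. Without the second Dmp53NS set, and with control or irradiated arrays alone, 0 of the 8 passed. Without the first Dmp53NS set or the second w1118 set 3 passed (dah, twe and bcd), and without the 2 arrays of high 3′ to 5′ ratio 2 did (twe and bcd). Without the yw set 5 passed and without the first w1118 set 7.

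**Figure D3:**
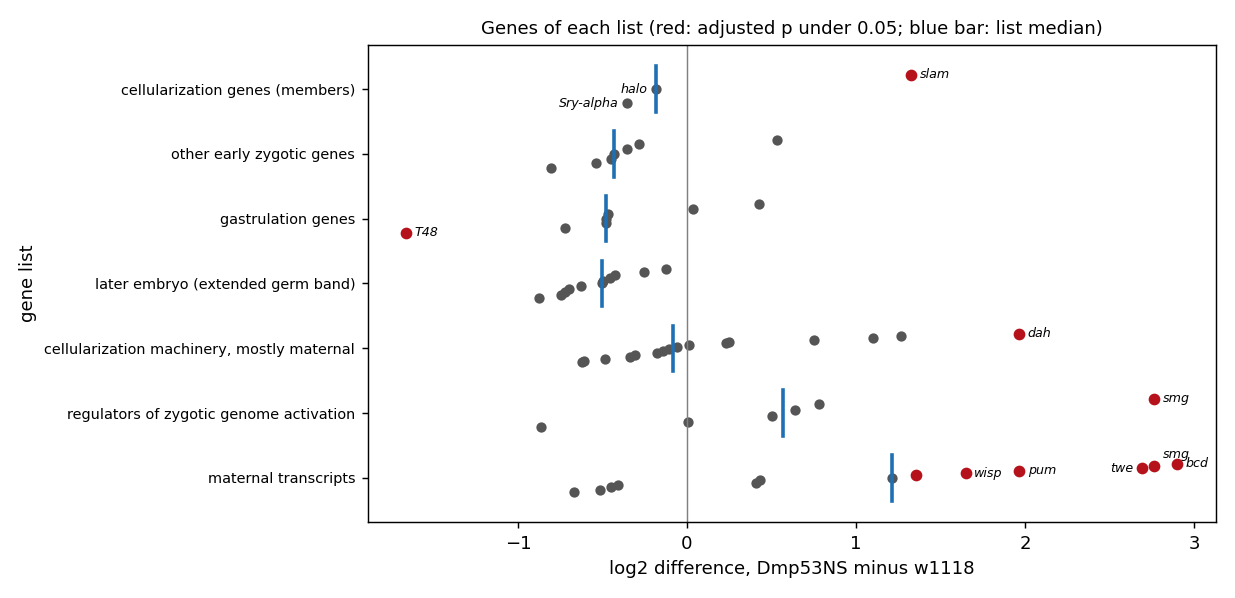
Log2 difference between Dmp53NS and w1118 for every measured gene of 7 lists; red points passed the test and blue bars are list medians. The maternal list has its median at 1.21 log2, the early zygotic, gastrulation and later lists at -0.43 to -0.50, and slam stands at 1.33.

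The lists were also read in both comparisons with yw. For yw against w1118, 0 of 13 maternal transcripts passed and 0 had an unadjusted p under 0.05, with a median of -0.12 log2. There the dorsal homeobox gene zen rose by 1.96 log2 (adjusted p = 0.0451) as 1 of 7 early zygotic genes, whose median was 0.33, and medians were -0.89 for the 6 regulators and -0.08 for the 11 later genes. The ligand gene fog of gastrulation was lower by 2.07 (adjusted p = 0.00674), and Cortactin of the machinery list by 2.00 (adjusted p = 0.0103). These were 1 of 7 and 1 of 16 measured genes. In this comparison 5.78% of all probe sets passed and 26.2% had an unadjusted p under 0.05. For Dmp53NS against yw, which shares arrays with both comparisons above, 4 of 13 maternal transcripts rose, with a median of 0.78, as did 4 of 16 machinery genes (dah, baz, Cortactin and cno), with a median of 0.64, and 2 of 6 regulators (smg and Clamp), with a median of 1.12. Of all probe sets 10.2% were called higher in that comparison, where the median was -0.15 log2. In the same comparison fog rose and sna fell among the gastrulation genes, bap fell among the later genes, and 0 of 7 early zygotic genes passed, with 4 at an unadjusted p under 0.05, all lower. There 21.0% of all probe sets passed and 38.8% had an unadjusted p under 0.05. Transcripts of zld, whose product activates the early zygotic genes, separated by day. Their signal was 602 to 711 on the 4 arrays of day 2, w1118 and mutant alike, and 16.6 to 126 on the other 6. The share of all probe sets that separate by day like this was not counted.

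Irradiation was compared with mock treatment within sets to ask whether 40 Gy altered these transcripts. Signals of halo were higher after irradiation in each of the 3 WT sets, by 2.39 times in yw and 1.71 and 1.84 times in w1118. The control values (202 to 256) and the irradiated ones (345 to 611) did not overlap, as held in this direction for 2.88% of all probe sets. The mean signal was 223 ± 28.5 in control and 449 ± 143 in irradiated WT embryos (SD, n = 3 each). The fitted change was 0.93 log2 (SE 0.27, 95% interval 0.35 to 1.50), with an unadjusted p = 0.00288 but a limma adjusted p = 0.267, so the change did not pass. Of all probe sets 0.239% passed there and 8.15% had an unadjusted p under 0.05, and of the 3 genes 0 passed and 1, halo, was at that level. In each of the 7 other lists 0 genes passed and 0 to 2 had an unadjusted p under 0.05, and their medians lay between -0.35 and 0.04 log2. The change was 0.78 log2 without the yw set (adjusted p = 0.796), and 1.02 and 0.97 without the first and second w1118 sets.

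The other genes showed smaller WT differences. That of slam was -0.17 log2 (95% interval -0.71 to 0.36, adjusted p = 0.933) and negative in 3 of 3 sets, with overlapping groups. That of Sry-alpha was -0.27 (-0.83 to 0.29, adjusted p = 0.879) and also negative in 3 of 3. Its irradiated WT arrays (218 to 305) lay below all control ones (312 to 351), as held in this direction for 2.54% of all probe sets, and in 1 w1118 set the step was only -0.03 log2. Both nullo (0.26, -0.71 to 1.22) and bnk (0.22, -0.26 to 0.69) come from the fit with no filter. The change of nullo was 1.34 log2 in the second w1118 set but -0.45 in the first and -0.12 in yw.

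In Dmp53NS embryos no gene of the 5 passed. The signal of halo went from 220 to 248 on day 2 and from 335 to 183 on day 3, with a fitted change of -0.33 log2 (95% interval -1.03 to 0.37, adjusted p = 1.000). That of slam differed by -0.49 log2 on day 2 and 0.66 on day 3, so its mean of 0.09 joins values of opposite sign. Sry-alpha had the signs reversed, with 0.22 and -0.42, and its mean was -0.10. The values of nullo were lower after irradiation in both sets, by -1.24 and -0.38 log2 (mean -0.81, -1.99 to 0.37). Limma called 0 of all probe sets here, 0.0%, and 1.6% had an unadjusted p under 0.05, against 0 of the 3 genes. In each of the 7 other lists 0 genes passed and 0 had an unadjusted p under 0.05, and their medians lay between -0.09 and 0.02 log2.

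The irradiation effect of halo was larger in WT than in Dmp53NS by 1.26 log2 (SE 0.43, 95% interval 0.35 to 2.16, unadjusted p = 0.00875, limma adjusted p = 1.000), which did not pass. Between w1118 and Dmp53NS within a day, it was 0.57 log2 on day 2 and 1.65 on day 3. Without the second Dmp53NS set the difference was 0.77 log2 (unadjusted p = 0.115), and without the first it was 1.74. Of all probe sets 0.0119% passed this test and 3.37% had an unadjusted p under 0.05. For slam and Sry-alpha the differences were -0.26 (-1.11 to 0.59) and -0.17 (-1.06 to 0.72), with neither at an unadjusted p under 0.05. For nullo and bnk they were 1.07 and 0.13 in the fit with no filter, with adjusted p = 0.999 for both.

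The patterns of the 3 tested genes over the arrays were set side by side. The root mean square difference between gene-centred log2 values over the 10 arrays was 0.57 between Sry-alpha and halo, 0.82 between Sry-alpha and slam and 0.90 between halo and slam. For comparison, the median such difference from all other named probe sets tested was 0.59 for Sry-alpha, 0.67 for halo and 0.87 for slam. The 3 genes nearest to slam by this measure were CG11674 (0.19), kipf (0.24), which encodes a zinc-finger protein of the ovarian piRNA pathway, and Snap24 (0.25), a SNARE gene of membrane fusion. Their differences between Dmp53NS and w1118 were 1.31, 1.64 and 0.90 log2, a likeness to slam that follows from their choice on these same arrays. Nearest to halo were the bacterial sensor gene PGRP-LE (0.21), CG16815 (0.21) and CG1750 (0.24). Nearest to Sry-alpha were CG3634 (0.17), the centrosome gene spd-2 (0.17) and the germ line transcription factor gene ovo (0.17). These are descriptions over 10 arrays that share strains, sets and days.

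**Figure D4:**
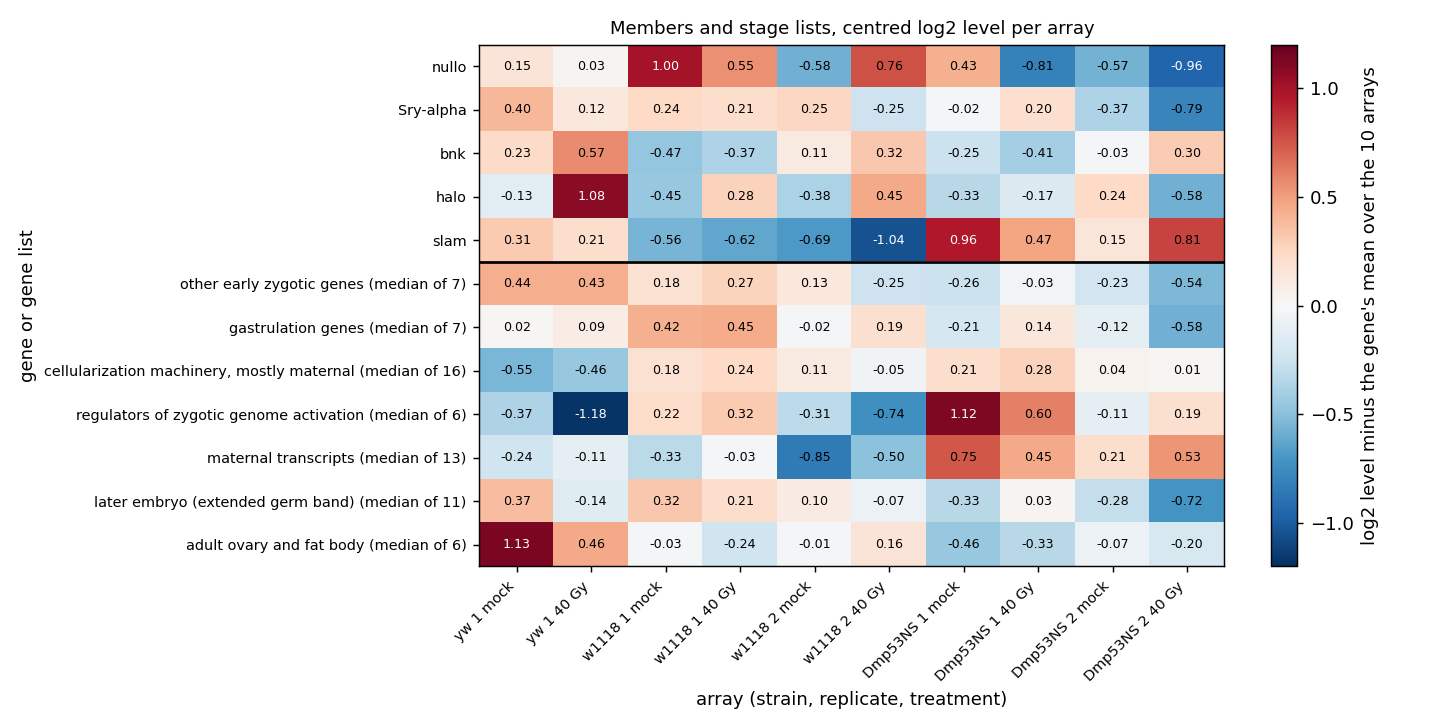
Log2 level minus the gene's own mean over the 10 arrays, for the 5 genes (top) and for the median of each gene list (below), by array. Values of slam run from -1.04 to -0.56 in w1118 and 0.15 to 0.96 in Dmp53NS, those of the maternal median from -0.85 to -0.03 and 0.21 to 0.75, and halo reaches 1.08 on the irradiated yw array.

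Genes next to the 5 on the chromosome, by the order in the Release 6 gene table, were read beside them. Nepl4, beside slam, differed by -0.03 log2 between Dmp53NS and w1118 (adjusted p = 0.968). Sry-beta, a zinc-finger gene beside Sry-alpha, differed by 0.77 (adjusted p = 0.120), and its sign was the opposite of that of Sry-alpha. CG4607, beside nullo, differed by 0.09 (adjusted p = 0.885). Beside bnk, CG1544 was lower by 1.17 log2 (adjusted p = 0.0288), where 5.93% of all probe sets passed. On its other side the brighter probe set of mesh differed by -0.53 (adjusted p = 0.353). Below the filter, by the fit without it, the dimmer one differed by -0.03 (adjusted p = 0.967) and CG14427, beside nullo, by 0.85 (adjusted p = 0.208). Both neighbours of halo were also dim, CG18132 at 0.06 and Or22a at -0.74 (adjusted p = 0.900 and 0.280).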

How the data were processed

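Whole-embryo total RNA was measured on 10 single-colour DrosGenome1 arrays. The deposited values are linear signal intensity per probe set, and the submitters' processing notes name MAS5, whose version is not given in the sources used here. Their 2% trimmed means are all 250.04, so the authors had scaled them globally. Hybridization days came from the run records, per the file headers. The 44 control probe sets were left out. The platform annotation gave 12443 probe sets 1 symbol, 327 several and 1196 none here.

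Values were rescaled to a common trimmed mean, taken as log2(signal + 14.6), the 20th percentile, and kept where mean signal exceeded 53.4 (40th percentile; 8379 probe sets). Folds are on this scale and understate changes of dim probe sets. For a gene with several probe sets the brightest was used. Tests used limma 3.58.1 in R 4.3.3 (eBayes with a trend) on all 10 arrays, two-sided, Benjamini-Hochberg adjusted over all kept probe sets, threshold 0.05. Strain differences, averaged over treatments, had set as a random block (consensus correlation 0.2). Irradiation effects had set as a fixed block, as the series describes paired sets. Deviations from the means of WT and of Dmp53NS arrays by treatment correlated at 0.43 to 0.65 within sets. Here yw and w1118 were pooled as WT, so the WT values also hold their strain and day differences. Both Dmp53NS sets gave 0.43 by construction. The replicate number also marked the hybridization day for w1118 and Dmp53NS. The fits were also run on simulated data with independent noise on each array. Those data held no correlation within sets, so they do not show how the p-values behave under it.

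The genes and lists were chosen with earlier results of these data known. Named were the 5 genes, at most the 5 largest passing genes per list and comparison, and the 3 nearest patterns per tested gene; p53, plu, the maternal genes below 0, zld, the neighbouring genes and the day ranges were singled out after their values were seen. The number of arrays limits the precision. No 2 arrays held identical values. Alternatives covered scaling, pseudocount, filter, variance trend, threshold, block, day, treatment state, each set left out and the 2 arrays of high 3′ to 5′ ratio.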

Additional observations from a re-analysis of the deposited data

Results flagged for a closer look

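Sry-alpha read 217.8 on the second irradiated w1118 array, apart from the other 3 w1118 arrays at 305 to 314. The gap was larger than Dixon's 95% limit for 4 values, which chance exceeds in about 1 in 20 groups. The same array had the eIF-4a 3′ to 5′ ratio of 12.2, and the part of that ratio in the value was not tested.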

How the results depend on the processing

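The 18 values of Sry-alpha, halo and slam were read under alternatives 270 times in all, and 255 readings kept their direction and their side of the threshold. The threshold of 0.10 was read on the main fit, without a refit. Only 1 of the 18 was called in the main fit, so the tally mostly holds values not called from the start. That 1, slam for Dmp53NS minus w1118, kept its call and direction in 10 of 17 alternatives. The difference of slam between Dmp53NS and w1118 was 1.15 to 1.50 log2 throughout. Its call was lost with control arrays alone (1.18 log2, adjusted p = 0.298), irradiated arrays alone (1.48, 0.225), without the 2 arrays of high 3′ to 5′ ratio (1.50, 0.0700), and when any set but the first w1118 set was left out (1.19 to 1.46 over the 5 sets). For yw against w1118 slam passed at a threshold of 0.10 (0.99 log2), where only the threshold differed. Differences of halo that changed sign with control arrays alone were 0.37 log2 (Dmp53NS minus w1118) and 0.084 (Dmp53NS minus yw). Without the second Dmp53NS set the irradiation values in Dmp53NS, then resting on 1 set, were 0.22 log2 for Sry-alpha, 0.16 for halo and -0.49 for slam, against -0.42, -0.82 and 0.66 without the first. The difference of irradiation effects then was 0.32 for slam, against -0.84 without the first, and that of Sry-alpha was 0.15 without the first Dmp53NS set. The difference for halo was 0.77 to 1.74 with a set left out. Fewer arrays were fitted in all of these cases but that of the threshold, and the causes beyond that were not tested.

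Counts over all probe sets moved more. For Dmp53NS minus w1118 (497) they were 955 at a threshold of 0.10, 0 with control arrays alone (1127 at an unadjusted p under 0.05), 1 with irradiated arrays alone, 32 without the 2 arrays of high ratio and 0 (1669 unadjusted) to 586 with a set left out, the lowest without the second Dmp53NS set. For yw minus w1118 (484) they were 1750 with no filter, 266 with a stricter one, 1099 at 0.10, 0 with control or irradiated arrays alone (1283 and 1403 unadjusted), 16 without the 2 arrays and 180 to 488 with a set left out. For Dmp53NS minus yw (1759) they were 3385 with no filter, 2825 at 0.10, 25 with control and 1 with irradiated arrays alone, 527 without the 2 arrays and 795 to 2263 with a set left out. For WT irradiation (20) they were 8 with no filter, 38 with a stricter one, 12 with quantile normalization, 3 without the variance trend and 12 to 41 with a set left out. In Dmp53NS irradiation (0) they were 0 to 3 with a set left out. For the difference of irradiation effects (1) they were 0 with no filter, quantile normalization or no trend, 3 at 0.10 or with a higher pseudocount, 7 with a stricter filter and 0 to 7 with a set left out.

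With no replicate block the counts were 876 for Dmp53NS minus w1118, 992 for yw minus w1118, 5 for WT irradiation and 0 for the difference (110 unadjusted). With a random replicate block they were 6 and 0 for the last pair. With the day as a fixed replicate block they were 2474 for Dmp53NS minus w1118 and 3 for the difference. No call on the 3 tested genes changed under any of these blocks. The call of slam, at an unchanged size, had an adjusted p of 0.00928 with no replicate block.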
